A study of Mus musculus with 8 samples.

Results

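The 9 genes described here encode GDNF and neurotrophin signalling molecules: the ligands Gdnf, Bdnf and Ntf3, and the receptors Ret, Gfra1, Gfra2, Ntrk2, Ntrk3 and Ngfr. They were listed by name, with no threshold on their values, out of the 38924 genes in each deposited count table. Each was found in all 8 tables by its Ensembl identifier. The study purified ribosome-bound mRNA from embryonic mouse neurons with bacTRAP lines, mice whose chosen neurons carry a tag on their ribosomes so that the mRNA being translated there can be captured from mixed tissue. The 6 dopamine libraries came from midbrain and comprised 2 named datL, 2 named datM, 1 named Lateral and 1 named Medial. The other 2 came from hindbrain serotonin neurons.

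Per the design text, the tag was expressed from the dopamine transporter gene (DAT, Slc6a3) in 1 line and from the gene of the serotonin transporter (SLC6A4) in another. The description of each of the 8 libraries, the serotonin libraries included, names the Slc6a3 line JD1640, so groups follow the titles. The labels do not spell out L and M, and give no number of embryos per library. Embryos were dissected at E15, and midbrain called E18 had been taken at E15 and cultured for 3 days. That statement is the same for all 8 libraries, and only the file headers of Lateral and Medial carry the mark E18. Per the headers, datL and datM came from 1 run and serotonin, Lateral and Medial from lane 8 of another. Run, E18 mark and the difference of datL and datM from Lateral and Medial cannot be told apart. Within lane 8, neuron type, brain region and the E18 mark cannot be told apart either. Whether replicates came from separate animals is not stated, and the p-values below refer to the spread among these libraries alone, part or all of which may be technical.

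GDNF binds a GFRalpha co-receptor held on the outer membrane by a lipid anchor, and the pair then engages the receptor tyrosine kinase RET. GFRalpha1 (Gfra1) is the preferred partner of GDNF, and GFRalpha2 (Gfra2) that of the related ligand neurturin. BDNF acts through the kinase TrkB (Ntrk2) and neurotrophin 3 (Ntf3) mainly through TrkC (Ntrk3), while p75 (Ngfr) binds all neurotrophins. GDNF and BDNF are best known in the midbrain as survival factors for dopamine neurons in culture.

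Total counts ran from 22417739 to 33216710 per library. Genes with at least 1 count numbered 11708 to 12509 in the 4 datL and datM libraries and 13703 to 15656 in the other 4. Levels are given in CPM, counts scaled to the library total, and comparisons between genes use CPM per kilobase of exon. The 10 listed dopamine neuron markers summed to 492 to 2815 CPM in dopamine libraries and to 415 and 431 CPM in serotonin libraries. In serotonin libraries that sum was mostly Slc18a2 (275 and 305 CPM) and En1 (93.5 and 88.6 CPM), while Slc6a3 stood at 0.679 and 0.172 CPM. Within datL, Slc18a2, the vesicle transporter that loads dopamine, had 0 counts in replicate 1 and 10.2 CPM in replicate 2. The 6 serotonin neuron markers summed to 4997 and 4176 CPM in serotonin libraries and to 37.1 to 423 CPM in dopamine libraries. The highest dopamine sum, in datL replicate 1, was almost all Gata3 (422 CPM). In Lateral and Medial, Tph2 stood at 16.8 and 41.5 CPM, Slc6a4 at 5.27 and 3.93 CPM, and Gata2 at 13.7 and 24.2 CPM. Fev was near 0 there, at 0.0903 and 0.312 CPM. In datL and datM, Slc6a4 and Fev had 0 counts, and Tph2 reached 0.0367 CPM at most. The part of this serotonin signal in the levels of Lateral and Medial was not tested. Markers of astrocytes and radial glia were present throughout, at 1953 to 5002 CPM over 9 genes in dopamine libraries and 924 and 1216 CPM in serotonin libraries.

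In the tables, which use mm10 and identifiers of GENCODE M2, the 9 genes lie on 8 chromosomes. Gdnf (ENSMUSG00000022144.3) spans 7811011 to 7837575 on the plus strand of chromosome 15. Bdnf (ENSMUSG00000048482.8) spans 109674700 to 109727007 on the plus strand of chromosome 2. Ntf3 (ENSMUSG00000049107.7) spans 126101413 to 126166744 on the minus strand of chromosome 6. Ret (ENSMUSG00000030110.7) lies on the same strand of chromosome 6, from 118151748 to 118197744. Gfra1 (ENSMUSG00000025089.9) spans 58235604 to 58455909 on the minus strand of chromosome 19. Gfra2 (ENSMUSG00000022103.9) spans 70890130 to 70979838 on the plus strand of chromosome 14. Ntrk2 (ENSMUSG00000055254.8) spans 58806596 to 59133970 on the plus strand of chromosome 13, Ntrk3 (ENSMUSG00000059146.6) 78192362 to 78578408 on the minus strand of chromosome 7, and Ngfr (ENSMUSG00000000120.6) 95568818 to 95587735 on the minus strand of chromosome 11. Counts were made over all exons without strand, so coding sequence, UTRs and transcript isoforms, such as the kinase and truncated forms of Ntrk2, were not separated. Gfra1 shares 416 bp, 7.6% of its exon bases, with the gene model Gm16277 on the other strand, and Gm16277 was listed at 0 in every library. The other 8 genes share no exon base with another gene of the tables.

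Among the ligands, Gdnf had 0 counts in each of the 8 libraries. A count of 0 allows up to 3 counts, which is 0.0903 to 0.134 CPM for a single library and 0.0140 CPM over all 8. Gdnf was therefore not detectable at this depth in either neuron type.

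Bdnf was counted in every library, at levels that differed over 100-fold between the replicates of datL and of datM. It stood at 0.220 and 91.3 CPM in the datL libraries, 0.0734 and 81.5 CPM in the datM libraries, 54.2 CPM in Lateral and 87.2 CPM in Medial, and the serotonin libraries held 4.31 and 4.87 CPM. It was thus high in 4 dopamine libraries, nearly absent from replicate 1 of both datL and datM, and low but even in the serotonin pair. The dopamine range of 0.0734 to 91.3 CPM spans the serotonin values, so the groups overlap.

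Ntf3, the neurotrophin 3 gene, was high in 2 libraries. It had 542 counts (16.3 CPM) in Lateral and 750 counts (33.5 CPM) in Medial. It had 5 and 2 counts (0.170 and 0.0686 CPM) in the serotonin libraries and 0 counts in the 4 datL and datM libraries. Against a floor of 3 counts over those 4 libraries, the mean of Lateral and Medial was at least 831-fold higher. This bound covers counting error only, not the spread between libraries. Of the 7260 genes with at least 10 CPM in both Lateral and Medial, 14 (0.193%) had 0 counts in all 4 datL and datM libraries: Ntf3, Cdk18, Penk, Gabbr2, Faah, Klk8, Lgals9, Etv4, Uggt2, Egflam, Zdhhc8, Pygm, Kcnip2 and Phka2. This set was described after the values were seen. Etv4, a transcription factor gene induced downstream of RET and Trk receptors, stood at 11.8 CPM in Lateral and 27.1 CPM in Medial, while the serotonin pair held 0.238 and 1.85 CPM.

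**Figure D1:**
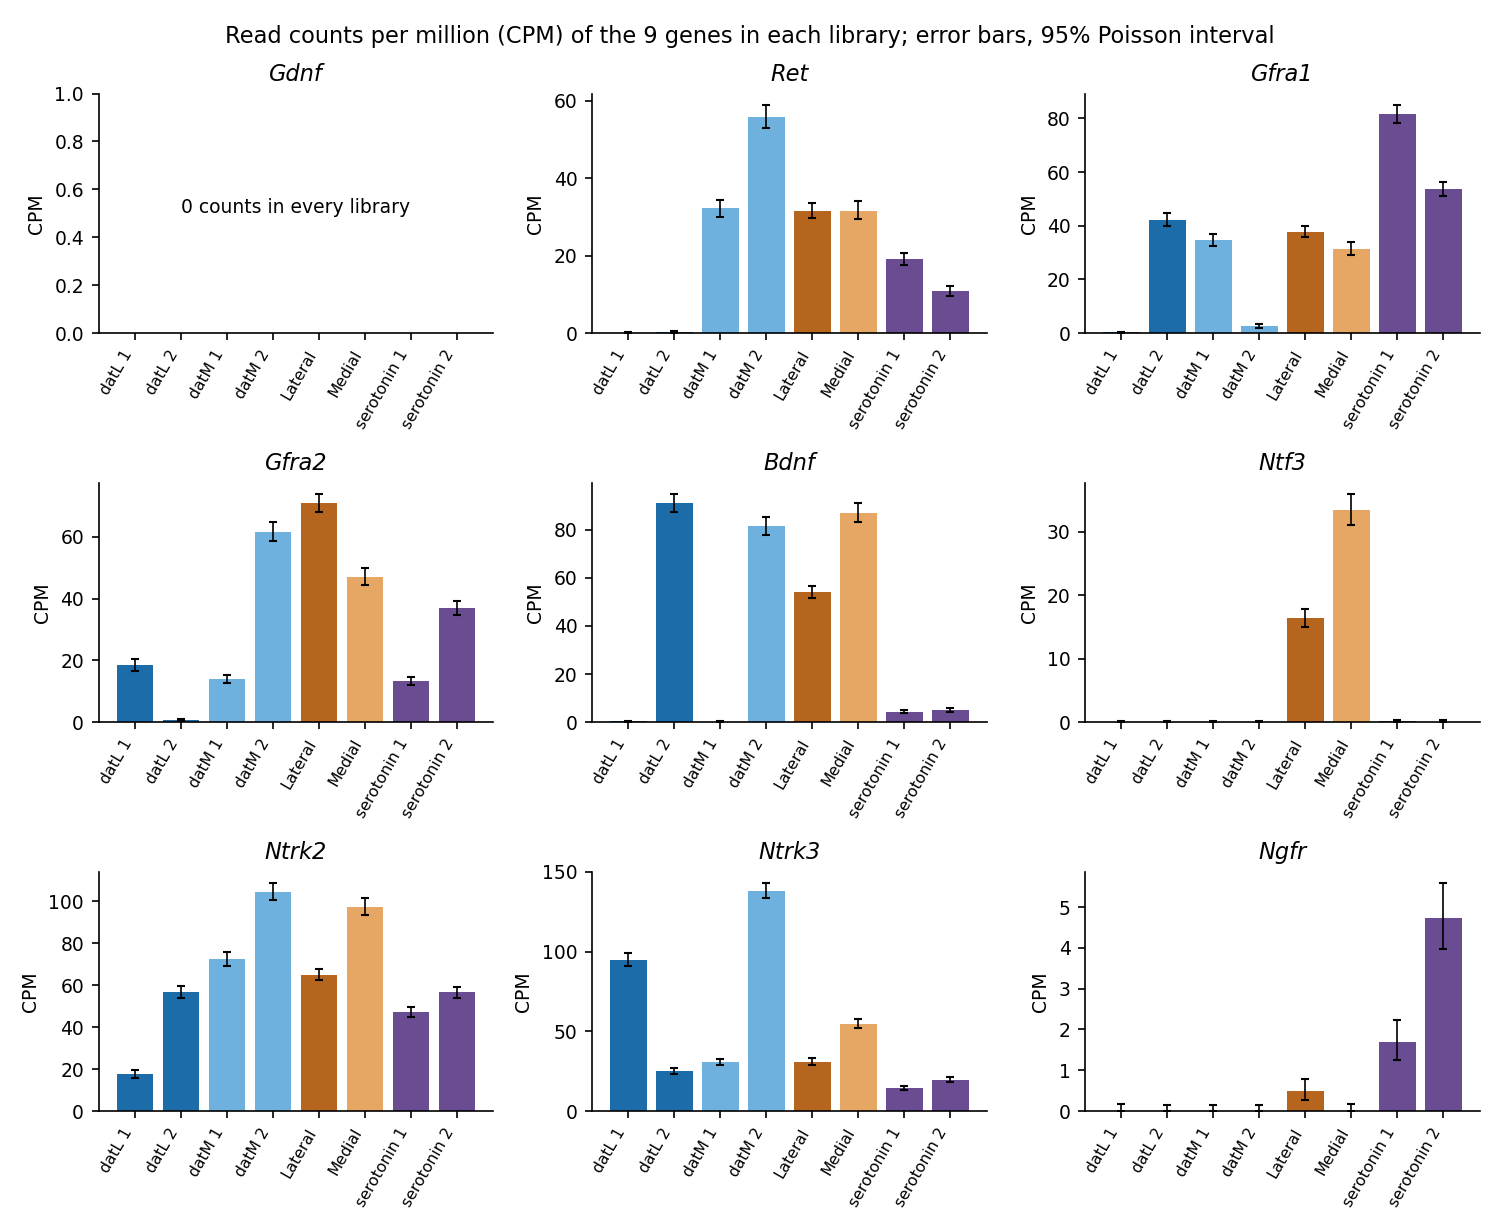
Levels of the 9 genes in CPM (vertical axes, linear, each with its own scale) in every library (horizontal axes); each bar is 1 library, coloured by group, and error bars are 95% Poisson intervals of the count. Gdnf was at 0 throughout, Ntf3 was high in Lateral and Medial alone, and Bdnf stood near 0 in 1 of the 2 libraries of both datL and datM.

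Among the receptors, Ret, the signalling kinase for GDNF family ligands, separated datL from the other groups. It had 0 and 7 counts in the datL libraries (0 and 0.267 CPM), against 32.2 and 55.9 CPM in the datM libraries. It stood at 31.7 CPM in Lateral, 31.7 CPM in Medial, and the serotonin libraries held 19.1 and 10.8 CPM. The 2 datL libraries lay below the other 6, and the 4 other dopamine libraries exceeded the serotonin pair. In order of group mean, Ret stood at 44.1 ± 16.8 CPM in datM (SD, n = 2), 31.7 CPM in Lateral and in Medial, 14.9 ± 5.87 CPM in serotonin (SD, n = 2) and 0.134 ± 0.189 CPM in datL (SD, n = 2). Lateral and Medial lay within 1 SD of the datM mean, so these neighbours in the order do not differ beyond their spread. The 10 dopamine neuron markers also had their lowest sums in datL, at 492 and 1062 CPM against 1580 to 2815 CPM in the other 4 dopamine libraries. Not each of them was low there: Slc6a3, which drives the tag, stood at 129 and 229 CPM in datL and 31.9 and 176 CPM in datM, and Foxa1 at 66.1 and 52.3 CPM and 43.0 and 59.6 CPM. Nr4a2 (56.7 and 99.2 CPM against 463 and 296 CPM) and Lmx1a (28.3 and 45.1 CPM against 343 and 185 CPM) were lower in both datL libraries. The 3 GABA neuron markers summed to 308 and 551 CPM in datL and to 50.2 and 131 CPM in datM, with Gad1 at 104 and 358 CPM against 1.54 and 0.208 CPM. They were also high in Lateral and Medial, at 770.5 and 384 CPM, where Ret was not low. Isl1, a motor neuron marker that other neurons also express, stood at 69.2 and 125 CPM in datL and 0.0367 and 26.2 CPM in datM. The other cholinergic and motor neuron markers listed, Chat, Mnx1 and Isl2, had 0 counts in every datL and datM library. The part of these markers in the low Ret of datL was not tested. In such bulk libraries fewer cells of a type and less RNA per cell cannot be told apart.

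Gfra1, the GDNF co-receptor, was highest in serotonin libraries, at 81.7 and 53.7 CPM. It stood at 0.220 and 42.2 CPM in the datL libraries, 34.6 and 2.50 CPM in the datM libraries, 37.8 CPM in Lateral and 31.4 CPM in Medial. All 6 dopamine libraries lay below both serotonin libraries. The replicates of datL and of datM did not keep to a level: 1 of each pair stood near the level of Lateral and Medial, and the other far lower. Group means were 67.7 ± 19.8 CPM in serotonin (SD, n = 2), 21.2 ± 29.7 CPM in datL (SD, n = 2) and 18.5 ± 22.7 CPM in datM (SD, n = 2). The order of datL, datM, Lateral and Medial does not hold beyond the spread of the datL and datM pairs.

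Gfra2, the neurturin co-receptor, was highest in Lateral, at 71.0 CPM. It stood at 47.1 CPM in Medial, 18.4 and 0.649 CPM in the datL libraries, 13.9 and 61.6 CPM in the datM libraries and 13.1 and 36.8 CPM in the serotonin libraries. Lateral and Medial lay above both serotonin libraries, while datL and datM libraries lay on both sides of serotonin. The serotonin pair itself differed 2.80-fold.

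The balance of the co-receptors, as a ratio of CPM per kilobase, was higher in serotonin libraries within lane 8. Gfra1 to Gfra2 was 3.93 and 0.923 in the serotonin libraries, 0.337 in Lateral and 0.421 in Medial. Per kilobase, Gfra1 therefore exceeded Gfra2 in 1 of the 2 serotonin libraries, and Gfra2 exceeded Gfra1 in the other 3 libraries of the lane. In CPM, Gfra1 was also the higher in serotonin replicate 2 (53.7 against 36.8 CPM). In the other run the ratio was 0.00756 and 41.1 in the datL libraries and 1.58 and 0.0256 in the datM libraries, so replicates lay on opposite sides of 1. The ratio of Gfra1 to Ret, also per kilobase, was 5.74 and 6.69 in the serotonin libraries. It was 1.60 in Lateral, 1.33 in Medial, and the datM pair gave 1.44 and 0.0599, below both serotonin values in all 4. With Ret at 0 and 7 counts, no such ratio was formed for datL.

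**Figure D2:**
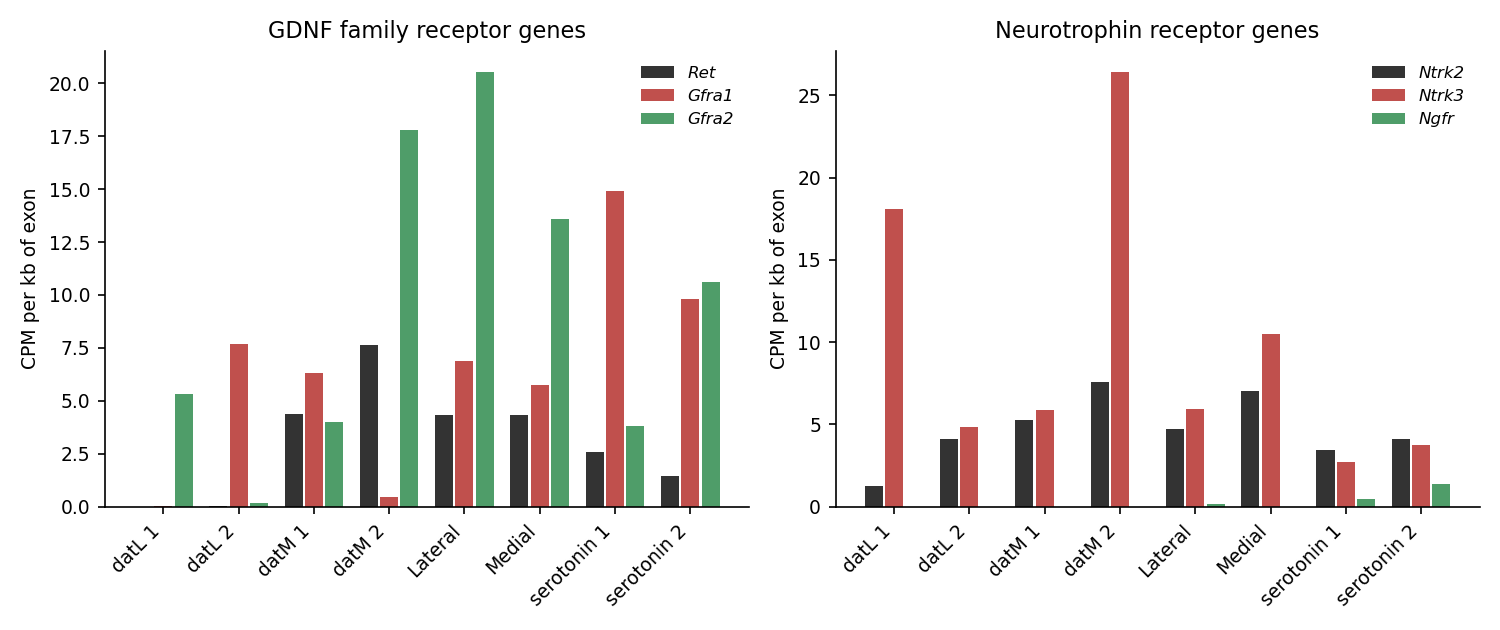
Levels of the 6 receptor genes as bars in CPM per kilobase of exon (vertical axes) in each library (horizontal axes), with the GDNF family receptor genes on the left and the neurotrophin receptor genes on the right. Gfra1 exceeded Ret in every library but datM replicate 2, with the largest ratios outside datL in the serotonin libraries, and Ret was near 0 in both datL libraries, where 1 of the 2 co-receptor genes was also near 0 in each library.

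Ntrk2, the BDNF receptor gene, was among the most even of the 9. It stood at 17.6 and 56.8 CPM in the datL libraries, 72.4 and 104.5 CPM in the datM libraries, 65.0 CPM in Lateral and 97.4 CPM in Medial, and the serotonin pair held 47.2 and 56.5 CPM. Both datM libraries, Lateral and Medial lay above both serotonin libraries, 1 datL library lay just above them and the other below. The group means were 88.5 ± 22.7 CPM in datM (SD, n = 2), 51.8 ± 6.57 CPM in serotonin (SD, n = 2) and 37.2 ± 27.7 CPM in datL (SD, n = 2), and the serotonin and datL means differ by less than the datL spread.

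Ntrk3, the receptor gene for neurotrophin 3, was lowest in serotonin libraries, at 14.3 and 19.6 CPM. It stood at 94.9 and 25.2 CPM in the datL libraries, 30.6 and 138 CPM in the datM libraries, 31.0 CPM in Lateral and 54.9 CPM in Medial. Each of the 6 dopamine values exceeded both serotonin values. The means were 62.5 ± 45.3 CPM over the dopamine libraries (SD, n = 6) and 16.9 ± 3.70 CPM over the serotonin libraries (SD, n = 2). Among the dopamine groups, the differences between means were smaller than the spread within datM (SD 76.1 CPM, n = 2), and the datL and datM means differed by less than either SD (49.3 CPM in datL, n = 2). Per kilobase, Ntrk2 exceeded Ntrk3 in the 2 serotonin libraries (ratios of 1.25 and 1.10). Ntrk3 exceeded Ntrk2 per kilobase in all 6 dopamine libraries (ratios of 0.0705 to 0.897). The side of 1 on which a ratio falls depends on the exon lengths used, 13806 bp for Ntrk2 and 5241 bp for Ntrk3. In CPM, Ntrk2 also exceeded Ntrk3 in datL replicate 2, datM replicate 1, Lateral and Medial. Ntrk3 was the higher in CPM in datL replicate 1 and datM replicate 2.

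Ngfr, the p75 receptor gene, was low where it was counted. It had 50 and 138 counts in the serotonin libraries (1.70 and 4.73 CPM), 16 counts in Lateral (0.482 CPM) and 0 counts in Medial and in the 4 datL and datM libraries. No dopamine library reached either of them. Against the floor of 3 counts over the 4 datL and datM libraries, the serotonin mean was at least 107-fold higher, by counting error alone. Noradrenaline neuron markers (4 genes) summed to 10.2 and 36.0 CPM in the serotonin libraries and to 0 to 3.12 CPM in the dopamine libraries. The library higher in noradrenaline markers was also the higher in Ngfr, and the part of these markers in the Ngfr level was not tested.

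The replicates of these genes differed more in datL and datM than in serotonin. Of the 6 members with a mean of at least 10 CPM, 3 in datL (Gfra1, Gfra2 and Bdnf) and 2 in datM (Gfra1 and Bdnf) were over 10-fold apart between replicates with at least 10 CPM in the higher library, and 0 in serotonin. Over the 8834 genes with such a mean, the shares were 21.9% in datL, 21.2% in datM and 0.351% in serotonin. Differences of this size between replicates were thus widespread in datL and datM. Of the same 6 members, 3 were under 1 CPM in datL replicate 1 (Ret, Gfra1 and Bdnf), 2 in datL replicate 2 (Ret and Gfra2) and 1 in datM replicate 1 (Bdnf), beside 16.2%, 9.07% and 12.8% of the 8834 genes. In the other 5 libraries 0 members were that low, beside 11.2% of genes in datM replicate 2, 1.08% and 1.27% in the serotonin libraries, 0.521% in Lateral and 4.32% in Medial. Bdnf differed 414-fold within datL and 1111-fold within datM, with replicate 2 the higher in both, as was over 10-fold the case at 3.20% of these genes. Ret, over 10-fold lower in both datL than in both datM libraries, belongs to 1.75% of them. These limits were set after the values were seen.

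**Figure D3:**
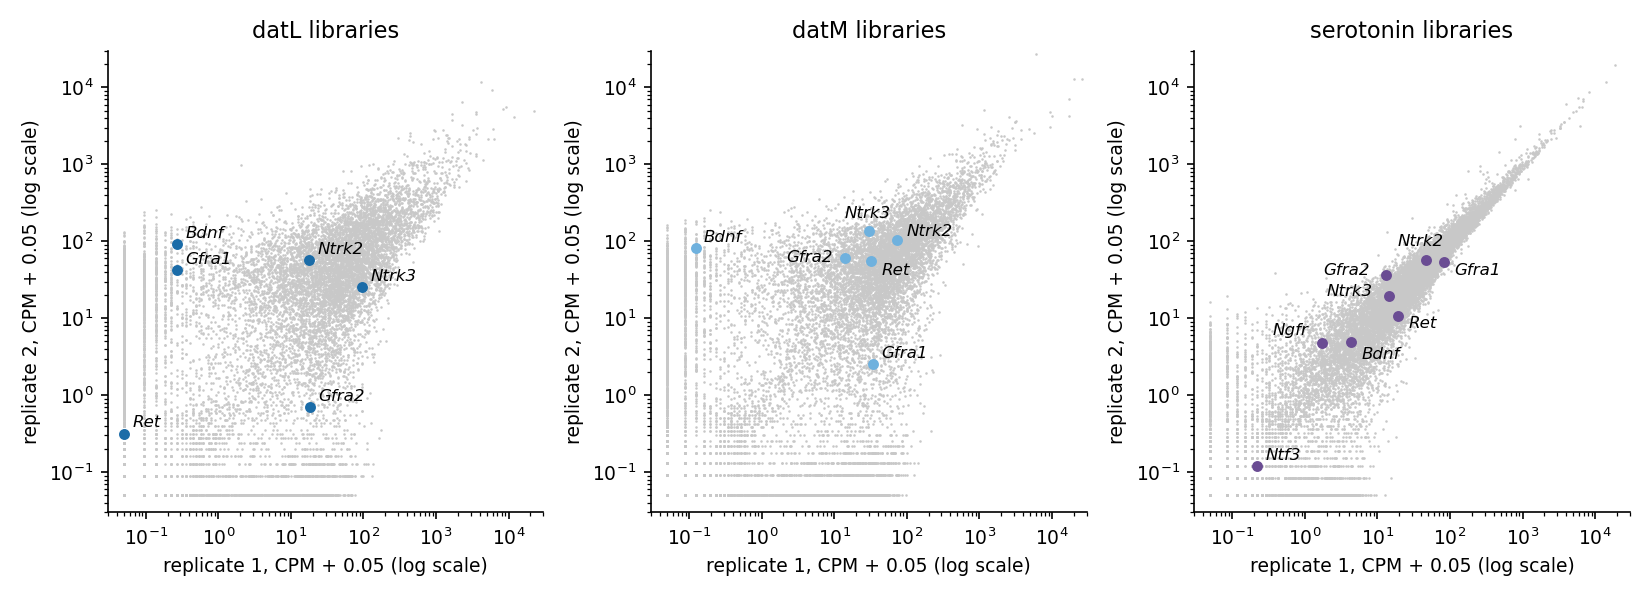
Replicate 1 (horizontal) against replicate 2 (vertical) in CPM plus 0.05 on log axes for datL, datM and serotonin; grey points are all genes with counts, and coloured points are the members counted in that group. The serotonin members lie near the diagonal, while Bdnf and Gfra1 lie far from it in both datL and datM.

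The first comparison asked how ribosome-bound mRNA of these genes differed between dopamine and serotonin neurons. In edgeR's quasi-likelihood test of 6 dopamine against 2 serotonin libraries, 0 of the 8 members tested passed an adjusted p of 0.05, as did 0% of the 13806 genes tested. Gdnf, at 0, was not tested. At an unadjusted p under 0.05 stood 1 member (Ngfr) beside 4.69% of all genes. DESeq2, which called 0.898% of genes, and limma-voom, which called 0.101%, called 0 members. Without overlap, 1 member (Ntrk3) lay above both serotonin libraries, beside 3.06% of all genes, and 2 (Gfra1 and Ngfr) lay below, beside 8.59%. The median log2 fold change was 0.72 over the 8 members and 0.26 over all genes tested. Ntrk3 had a log2 fold change of 2.03 (SE 0.94, unadjusted p = 0.0524, edgeR adjusted p = 0.9999). Ngfr had -5.15 (SE 2.27, unadjusted p = 0.0435, edgeR adjusted p = 0.9999). Without Lateral, the only dopamine library with Ngfr counts, the fitted value was -9.32, which then depends on the prior count and is no bound. Gfra1 had -1.33 (SE 1.29, edgeR adjusted p = 0.9999). Bdnf, at 52.4 ± 42.5 CPM in dopamine (SD, n = 6) and 4.59 ± 0.397 CPM in serotonin libraries (SD, n = 2), had 3.61 (SE 2.16). The other values were 0.86 for Ret, 0.59 for Gfra2, 0.52 for Ntrk2 and 6.04 for Ntf3, with SEs of 1.99, 1.32, 0.70 and 4.56. The SE exceeded the fold change in each of these except Ntf3, whose counts came from Lateral and Medial. The sign of Ret, Gfra2 and Ntf3 changed under other settings.

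Within lane 8, Lateral and Medial were set as 1 group against the serotonin pair. Only serotonin has replicates in this lane. Lateral and Medial are 1 library each of differently named groups, so the SDs and SEs below also hold any difference between those groups. Of the 11685 genes with at least 100 counts in 1 of them, 49.3% were past a 2-fold ratio between Lateral and Medial. Here 0 of 8 members passed in edgeR, beside 0.0224% of the 13400 genes tested, which is 3 genes. At an unadjusted p under 0.05 stood 2 members, Bdnf and Ntf3, beside 13.8% of genes. All 8 members were without overlap, 6 above serotonin beside 25.0% of all genes and 2 (Gfra1 and Ngfr) below beside 24.6%. Their median log2 fold change was 1.09, against 0.03 over all genes. For Bdnf, at 70.7 ± 23.4 CPM in Lateral and Medial (SD, n = 2), the log2 fold change was 3.85 (SE 0.56, unadjusted p = 0.000476, edgeR adjusted p = 0.254). For Ntf3 it was 7.55 (SE 1.33, unadjusted p = 0.00137, edgeR adjusted p = 0.273). The receptor genes gave smaller values: 1.25 for Ntrk3 (SE 0.59, edgeR adjusted p = 0.425), 1.18 for Gfra2 (SE 0.64, edgeR adjusted p = 0.498), 1.00 for Ret (SE 0.66, edgeR adjusted p = 0.587), 0.56 for Ntrk2 (SE 0.38, edgeR adjusted p = 0.603), -1.05 for Gfra1 (SE 0.45, edgeR adjusted p = 0.384) and -3.72 for Ngfr (SE 2.40, edgeR adjusted p = 0.575). DESeq2, which called 787 genes (5.87%), called Bdnf (adjusted p = 4.88e-08) and Ntf3 (adjusted p = 1.01e-08), and limma-voom, which called 1 gene (0.00746%), called 0 members. Without Lateral, edgeR placed Bdnf (adjusted p = 0.0246) and Ntf3 (adjusted p = 0.0247) past the threshold, among 2453 genes. That fit takes the lone Medial library to vary like the serotonin pair. These libraries are also in the comparison over all 8, so its values are not a second set of evidence. Oligodendrocyte lineage markers (7 genes) summed to 201 CPM in Lateral and 418 CPM in Medial, against 21.5 and 36.5 CPM in serotonin libraries. Astrocyte and radial glia markers (9 genes) summed to 2077 and 3929 against 924 and 1216 CPM. The part of these cells in the higher Bdnf, Ntf3, Ntrk2 and Ntrk3 was not tested.

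The second comparison set datL against datM. In edgeR 0 of the 6 members tested passed, beside 0% of 15177 genes, and Gdnf, Ngfr and Ntf3 were at 0 in all 4 libraries. At an unadjusted p under 0.05 stood 1 member (Ret) beside 1050 (6.92%) of the 15177 genes. Unlike the 6 members, that total includes genes at 0 in all 4 libraries, so the share is an underestimate for genes counted there. In datL 0 members lay above both datM libraries, beside 12.7% of the 13556 genes counted in at least 1 of the 4 libraries, and 2 (Ret and Ntrk2) lay below, beside 14.8%. These counts turned on single libraries and changed when some of them were left out. With 1 library left in a group, values separate more readily. The shares over all genes were not computed for those sets, so no counts are given for them. Ret had a log2 fold change of -8.24 (SE 2.37, unadjusted p = 0.00978, edgeR adjusted p = 0.597). It was -7.28 without datL replicate 1 and -13.30 without datL replicate 2, where the remaining datL library had 0 counts and the fitted value is no bound. It passed in DESeq2 (-8.30, adjusted p = 2.31e-07), which called 10.6% of all genes, and in limma-voom (-9.04, adjusted p = 0.0451), which called 1.60%. Ntrk2 had -1.18 (SE 0.90, edgeR adjusted p = 0.751), and from -2.26 (without datL replicate 2) to -0.58 (without datL replicate 1) with single libraries left out. Gfra2 had -1.88 (SE 1.73, edgeR adjusted p = 0.854), and from -5.79 (without datL replicate 1) to -0.50 (without datM replicate 2). Gfra1, Bdnf and Ntrk3 had 0.24, 0.24 and -0.39, with SEs of 2.03, 2.59 and 1.13, and their signs turned when single libraries were left out. The median was -0.78 over the 6 members and 0.03 over all genes.

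Lateral and Medial, with 1 library each, allowed no test, and intervals cover counting error only. Of the 7 members with at least 100 counts, 1 (Ntf3) was past a 2-fold ratio, beside 49.3% of the 11685 genes with at least 100 counts. Scaled by library total, Ret was level, with a ratio of CPM in Lateral to Medial of 1.00 (95% interval 0.908 to 1.10). The co-receptors were higher in Lateral, at 1.21 for Gfra1 (1.10 to 1.32) and 1.51 for Gfra2 (1.402 to 1.62). The neurotrophins and their kinase receptors were lower in Lateral, at 0.488 for Ntf3 (0.436 to 0.545), 0.621 for Bdnf (0.582 to 0.662), 0.667 for Ntrk2 (0.628 to 0.708) and 0.565 for Ntrk3 (0.520 to 0.614). Scaled with TMM factors, Ntf3 stood at 0.549 and was not past 2-fold, and Ret stood at 1.13. The TMM-scaled ratios were 1.36 for Gfra1, 1.70 for Gfra2, 0.699 for Bdnf, 0.751 for Ntrk2 and 0.636 for Ntrk3. Each TMM-scaled ratio lay outside its interval above, so those intervals hold only for scaling by library total. Ngfr had 16 counts in Lateral and 0 in Medial.

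**Figure D4:**
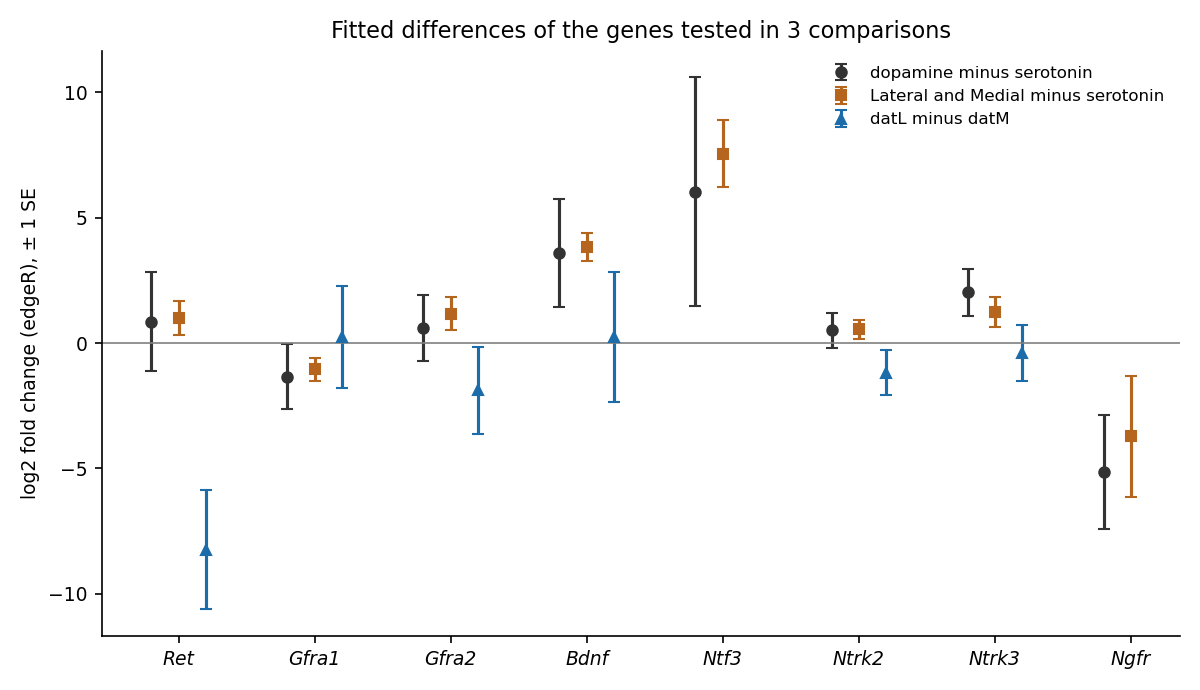
Log2 fold changes from edgeR (vertical axis) of the members tested (horizontal axis) in the 3 comparisons; points are estimates and bars are 1 SE to each side. Bdnf and Ntf3 lie farthest above 0 in Lateral and Medial against serotonin, and Ret lies farthest below 0 in datL against datM.

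None of the other genes of these pathways passed in edgeR. Of 52 further listed genes, 42 were abundant enough to test between dopamine and serotonin. At an unadjusted edgeR p under 0.05 stood 2 of them, Etv1 and Manf, beside 4.69% of all genes. The log2 fold changes of the 42 were positive at 35 and negative at 7, beside 8137 positive of the 13806 genes tested. Their median was 0.85 against 0.26. Without overlap, 3 lay above and 3 below, beside 3.06% and 8.59% of all genes. Within lane 8, 29 were positive and 13 negative, beside 6814 positive of 13400, with a median of 0.66 against 0.03. There 15 lay above and 5 below without overlap, beside 25.0% and 24.6% of all genes. At an unadjusted edgeR p under 0.05 within lane 8 stood 8 positive and 1 negative, beside 984 and 865 of all 13400 genes. Between datL and datM, 17 of 40 were positive and 23 negative, beside 6888 positive and 6668 negative of all 13556 genes. The remaining GDNF family ligands were near 0: neurturin (Nrtn) reached 0.441 CPM in datL replicate 1, artemin (Artn) 1.02 CPM and persephin (Pspn) 0.543 CPM in serotonin replicate 1. Ntf5, another neurotrophin gene, was listed at 0 in all 8 libraries.

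Of the 9 genes listed as induced downstream of RET and Trk receptors, 8 had positive log2 fold changes in dopamine libraries, beside 8137 of all 13806 genes. Within lane 8 there were 8, beside 6814 of 13400. Whether these genes responded to RET or Trk signalling here was not tested. There 5 lay above serotonin without overlap, beside 25.0% of all genes. Of these 5, Npas4 was low, at 1.20 CPM in Lateral and 0.446 CPM in Medial, with 3 and 0 counts in the serotonin libraries. Between datL and datM, 1 of the 5 tested was positive and 4 were negative, beside 6888 positive and 6668 negative of all 13556 genes. Several were low: Egr1, whose values are also the list's medians (1.49 over all libraries and 2.97 within lane 8), was at 0 in the 4 datL and datM libraries, 0.134 CPM in Medial and 9.75 CPM in Lateral, and Fos reached 7.41 CPM in Lateral and stood at 0 in Medial. Etv1, an ETS transcription factor gene, stood at 13.6 and 72.0 CPM in the datL libraries, 11.1 and 34.4 CPM in the datM libraries, 37.6 CPM in Lateral and 53.7 CPM in Medial, and the serotonin pair held 1.60 and 1.20 CPM. It lay above serotonin in 6 of 6 dopamine libraries, with a log2 fold change of 4.84 (SE 1.38, unadjusted p = 0.0046, edgeR adjusted p = 0.415). It passed in DESeq2 (4.86, adjusted p = 1.28e-05). Dusp6, a phosphatase gene that limits ERK signalling, had a log2 fold change of 1.38 over all libraries and 1.77 within lane 8 (edgeR adjusted p = 0.286 there).

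Manf, a secreted factor of the endoplasmic reticulum that belongs to another family, ran the other way. The serotonin pair held 114 and 91.0 CPM of it, against 1.79 to 33.0 CPM over the 6 dopamine libraries, all of them lower (log2 fold change -2.54, unadjusted p = 0.0194, edgeR adjusted p = 0.86). Ncam1, a cell adhesion gene whose product also binds GDNF, had 0.98 over all libraries and 1.17 within lane 8 (edgeR adjusted p = 0.29 there), and Gfra4, the persephin co-receptor, -0.70. Among the sortilin family genes, Sorcs2, a co-receptor of p75, had 2.98 and 2.99 (edgeR adjusted p = 0.273 within lane 8), and Sorl1 had 1.60. Of the modulators, Islr2, a membrane protein that binds Trk receptors and RET, had 3.57 and Nedd4l, a ubiquitin ligase gene, 0.94, and both lay above serotonin in 6 of 6 dopamine libraries. Of the adaptors, Sos1, a Ras exchange factor gene, had 1.33 over all libraries and -0.10 within lane 8, and Kidins220, a scaffold for Trk receptors, had 0.73.

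For each member with a mean of at least 5 CPM, the genes with the most similar profile were sought among 10094 genes, by Pearson's r of log2 CPM over the 8 libraries. These r are descriptions, since all genes share the libraries and their depth. For Ret they were Lrtm2 (r = 0.988) and Itga3 (r = 0.987), both also at 0 in datL replicate 1 and under 0.1 CPM in datL replicate 2. For Gfra1 they were Ppfia4 (0.989) and Sel1l (0.982), and for Gfra2 Gga3 (0.980) and Neo1 (0.967). For Bdnf they were Rlbp1 (0.984) and Pggt1b (0.980), each at 0 in datL replicate 1 and at 1 count, 0.037 CPM, in datM replicate 1. For Ntrk2 they were Tac1 (0.991) and Yap1 (0.981), and for Ntrk3 Mta2 (0.951) and Arhgap35 (0.949). For Ntf3 they were Gpr146 (0.990) and Lmo7 (0.982). Gpr146 was at 0 in the 4 datL and datM libraries and stood at 7.71 CPM in Lateral and 39.2 CPM in Medial.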

How the data were processed

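Raw read counts per gene were deposited as 1 table per library. The submitters' processing notes name STAR and mm10. Per the file headers, reads were counted with featureCounts 1.4.3-p1 against GENCODE M2. Library making included long-distance PCR of the cDNA, 10 further PCR cycles and 100 bp single-end sequencing, per the labels' protocols. PCR copies carried no molecular identifiers, so intervals (95%, exact Poisson for counts) and floors (3 counts) cover counting error only.

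Counts were scaled to CPM by library total. Symbols were attached by Ensembl identifier to 37607 of 38924 genes. Tests were two-sided and used edgeR 4.0.16 in R 4.3.3 (quasi-likelihood, TMM, default expression filter, Benjamini-Hochberg over all genes tested, threshold 0.05), with datL against datM fitted over all 5 groups. Each SE is the fold change divided by the root of the F statistic. The Lateral to Medial ratio used an exact binomial interval. The scripts were tested on simulated counts. Alternatives were DESeq2 1.42.0, voom of limma 3.58.1, RLE factors, other filters and library sets, a replicate block and leaving out each library.

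Named genes were the 9 members, up to 2 other genes per pathway list by smallest unadjusted p between dopamine and serotonin, and the 2 most similar genes per member, with log2 CPM at a prior count of 2. Genes named outside this rule, among them the listed ligands, Egr1, Fos and the 14 genes counted in Lateral and Medial but not in datL and datM, were chosen after their values were seen. The members and lists were chosen with earlier results of these data known. Of the listed genes 1, Slc18a3, matched no row and was not analysed here.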

Additional observations from a re-analysis of the deposited data

Results flagged for a closer look

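Among the 6 dopamine libraries, Ngfr was listed at 0 in 5 and at 0.482 CPM (16 counts) in Lateral, which stood apart from the rest of its group by Dixon's criterion. Chance flags about 1 in 20 groups, and 5 equal values of 0 make any count in the other library stand apart. Of the other members tested in this way 0 had a library that stood apart.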

How the results depend on the processing

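Over all genes, dopamine against serotonin gave 0 calls in edgeR, 124 in DESeq2, 14 in limma-voom, 2 with the 4 dopamine groups fitted apart, 2 for datL and datM alone, 3 for Lateral and Medial alone, and 0 to 1 with single libraries left out (1 without datL replicate 1). For datL against datM the calls were 0 in edgeR, 1609 in DESeq2, 243 in limma-voom, and 0 to 6 with single libraries left out (6 without either serotonin library). The members called there were 1 in DESeq2 and 1 in limma-voom (Ret in both), and otherwise 0. For Lateral and Medial against serotonin the calls were 3 in edgeR, 787 in DESeq2, 1 in limma-voom, 7 with no filter but 1 count, and 13 to 2453 with single libraries left out (13 and 22 without serotonin replicate 1 or 2, 23 without Medial, 2453 without Lateral). The members called there were 2 in DESeq2, and 0 to 2 with single libraries left out (2 without Lateral). Signs turned, with no call involved, for these log2 fold changes of dopamine against serotonin: Ret to -1.28 in limma-voom and -0.72 with groups fitted apart, Gfra2 to -0.003 in limma-voom and -0.012 without serotonin replicate 1, Sorl1 to -0.07 in limma-voom and Sos1 to -0.10 within lane 8. With single libraries left out Gfra2 ran from -0.012 to 1.45. For datL against datM, Gfra1 turned to -1.48 in limma-voom, -6.32 without datL replicate 2 and -0.66 without datM replicate 2, Bdnf to -7.42 without datL replicate 2 and -0.76 without datM replicate 1, and Ntrk3 to 0.24 without datL replicate 2 and 1.01 without datM replicate 2. With single libraries left out these ran from -6.32 to 3.15, from -7.42 to 9.25 and from -1.68 to 1.01. The cause was not tested. With TMM scaling 0 members were past 2-fold between Lateral and Medial. Without datL replicate 1, 2 members (Ntrk3 and Ntrk2) lay above serotonin without overlap. For Ntrk2 the margin was within counting error, at 56.8 CPM in datL replicate 2 against 56.5 CPM in serotonin replicate 2. The share over all genes was not computed for that set.

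A replicate block changed no call: it gave 0 genes called between dopamine and serotonin and 0 between datL and datM, and turned Ntf3 to -0.59 in the former. Same-numbered libraries did not deviate together (r across 15177 genes of 0.099 for datL with datM, 0.015 for datL with serotonin and -0.003 for datM with serotonin), so the numbers were not taken as pairs. No paired analysis was possible for Lateral and Medial because they share only 1 number with serotonin. Gdnf, Ngfr and Ntf3 had few or 0 counts in most libraries, where depth sets only the floor of their values. Medial, with the lowest total (22417739 counts), held 750 counts of Ntf3. Genes with at least 1 count nevertheless numbered 13703 in Medial and only 11708 to 12509 in datL and datM. The cause of the 0 counts in datL and datM was not tested.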
